A study of Mus musculus with 6 samples.

Results

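The genes described are 34 named interferon-stimulated and p200 genes, of 18951 genes in the deposited count table. They were taken by matching the table's Ensembl identifiers to GENCODE M21 symbols, and the rule uses gene names, not measured values. The list of names was, however, chosen with earlier results of these data known. All 34 were in the table, and 33 passed the filter on low counts and were tested among 14621 genes. Mx1 was the member left untested.

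Interferons are secreted proteins that set cells into an antiviral state. Type I interferon binds the receptor made of IFNAR1 and IFNAR2, the kinases JAK1 and TYK2 phosphorylate STAT2, and this joins IRF9 in a complex that binds interferon-stimulated response elements (ISREs) in the promoters of interferon-stimulated genes. Products of these genes sense foreign RNA and DNA, block viral translation and replication, and feed back on the pathway. The p200 family is a mouse gene cluster whose interferon-inducible proteins bind nucleic acids or take part in gene regulation.

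The series compared cultured neonatal mouse heart cells given an siRNA against Rbm22, a zinc finger protein of the spliceosome (si-Rbm22), with cells given a scrambled siRNA (si-Control), at 3 libraries each. Per the labels, both groups were C57BL/6J cells from hearts of 1-day-old mice, with a stated purity above 97.5% for cardiac troponin T, and RNA was taken 48 h after transfection. The labels speak of biological replicates but not of separate isolations, so the spread behind each p-value is that of these 3 samples per group and may be technical. Values are read counts, or CPM scaled with edgeR's TMM factors (reads relative to the size of the library), as mean ± SD over n = 3. A gene passed at an adjusted p under 0.05 (edgeR quasi-likelihood test, Benjamini-Hochberg over the 14621 genes), and a positive log2 fold change means a higher level in si-Rbm22. Gene positions are on GRCm38.

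Rbm22 itself had 533, 466 and 491 reads in si-Rbm22 and 798, 916 and 774 in si-Control, or 13.5 ± 0.892 CPM in si-Rbm22 against 23.2 ± 1.79 CPM in si-Control (log2 fold change -0.78, SE 0.097, adjusted p = 4.22e-06). Totals ran from 36860678 to 37344860 reads in si-Rbm22 and from 34269042 to 35955301 in si-Control. The libraries labelled si-Control went against their cell type label. The summed level of 15 cardiomyocyte markers was 29600 to 45800 CPM in si-Rbm22 and 116 to 135 CPM in si-Control, where 6 of the 15 had no read. Conversely, 10 skeletal myoblast markers summed to 0.586 to 0.889 CPM in si-Rbm22 and 775 to 806 CPM in si-Control, and Myod1, Myf5, Cdh15 and Cacng1 had no read in si-Rbm22. Markers of macrophages and endothelial cells, which may also be present in heart cultures, differed too. The 17 macrophage markers summed to 128 to 167 CPM in si-Rbm22 and 6.13 to 7.91 CPM in si-Control, where 5 of the 17 (Adgre1, C1qb, C1qc, Fcgr1 and Tyrobp) were at 0. Aif1 and Cd163, with few reads, went the other way. The 16 endothelial markers summed to 484 to 541 CPM in si-Rbm22 and 10.4 to 12 CPM in si-Control, where 4 of the 16 were at 0. Fibroblast markers, 14 in all, summed to 6660 to 7120 CPM in si-Rbm22 and 28200 to 30600 CPM in si-Control, with 10 of the 14 lower and 1 not past. The 3 that were higher were Tcf21, Thy1 and Dcn, and Tcf21 had no read in si-Control. The doubt touches all 3 si-Control libraries, so no comparison could be run without them, and the siRNA and the cell content cannot be told apart in any result that follows. In these bulk samples, fewer cells of a type and less RNA per cell cannot be told apart either.

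The core of the ISRE, taken as GAAA, any 2 bases and GAAA again, was searched on both strands in RefSeq promoters (GRCm38.p6, 250 bases before to 50 after each start). A promoter was matched for 25 of the 34 members. The core was found in 14 of these 25 (56%), against 1079 of 27025 genes with a promoter (3.99%), and in 18 of 42 (42.9%) from a list of other interferon-stimulated genes. Within the bases before the start alone, the shares were 48% of members, 33.3% of the other interferon-stimulated genes and 3.46% of all genes. TTCNNNGAA, the palindrome bound by STAT dimers (GAS), was in 5 of the 25 member promoters (20%), in 7.14% of the other interferon-stimulated genes and in 9.55% of all genes. In the Bst2 promoter an ISRE core and a GAS match shared bases. A match describes letters only. The unmatched members were Oas2, Mx1, Mx2, Dhx58, Usp18, Zbp1, Ifi204, Rtp4 and Parp14.

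The windows that follow are shown because they belong to members that ended on different sides of the test: Oas1a, Rsad2 and Gbp3 were higher in si-Rbm22, Ifi203 was lower, and Isg15, Ifit1, Ifit3, Ifit3b and Bst2 did not pass. Each is 60 bases, written 5′ to 3′ on the gene's strand, with the ISRE core in capitals (TTTC, 2 bases and TTTC is the same core on the other strand). They are chr5:120907508-120907567 (minus strand) for Oas1a, chr12:26456538-26456597 (minus) for Rsad2, chr3:142559977-142560036 (plus) for Gbp3, chr1:173942493-173942552 (minus) for Ifi203, chr4:156200856-156200915 (minus) for Isg15, chr19:34640769-34640828 (plus) for Ifit1, chr19:34583365-34583424 (plus) for Ifit3, chr19:34607761-34607820 (plus) for Ifit3b and chr8:71537565-71537624 (minus) for Bst2.
Oas1a: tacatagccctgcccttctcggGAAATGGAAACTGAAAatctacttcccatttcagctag
Rsad2: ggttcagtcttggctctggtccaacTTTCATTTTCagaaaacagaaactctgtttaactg
Gbp3: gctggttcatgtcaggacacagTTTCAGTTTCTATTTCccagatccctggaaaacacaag
Ifi203: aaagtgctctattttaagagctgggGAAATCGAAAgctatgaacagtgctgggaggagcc
Isg15: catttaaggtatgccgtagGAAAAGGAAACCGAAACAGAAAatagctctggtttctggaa
Ifit1: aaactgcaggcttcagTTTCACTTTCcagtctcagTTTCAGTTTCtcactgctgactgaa
Ifit3: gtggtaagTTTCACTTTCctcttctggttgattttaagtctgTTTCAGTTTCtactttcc
Ifit3b: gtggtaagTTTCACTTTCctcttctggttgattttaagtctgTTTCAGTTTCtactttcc
Bst2: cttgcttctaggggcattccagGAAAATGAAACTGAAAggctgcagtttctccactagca
The Isg15 window holds 3 overlapping cores in a row, between 78 and 57 bases before the start. In Oas1a the cores lie closest to the start of the windows shown, between 20 and 5 bases before it. Ifit3 and Ifit3b share all 60 bases.

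**Figure D1:**
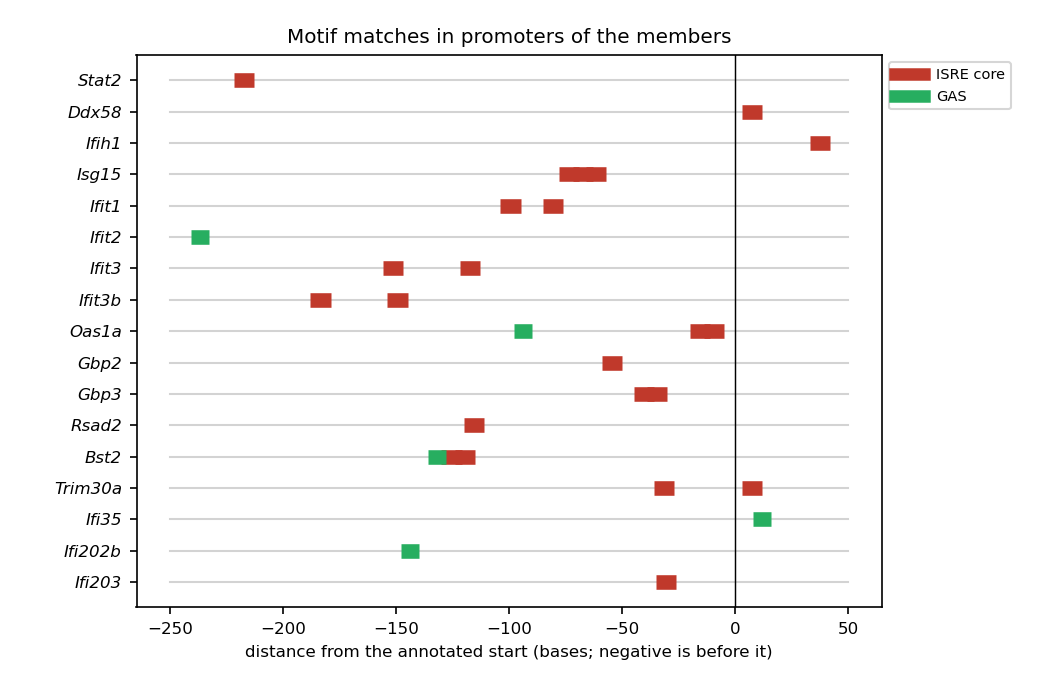
Position of ISRE core and GAS matches in member promoters, as distance in bases from the annotated start (negative is before it), 1 line per gene. Of 25 members with a RefSeq promoter, those with neither match are not drawn. An ISRE core appears in 14, in 12 of them before the start, and Isg15 has 3 overlapping cores.

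Interferon-stimulated genes did not move as one block between the groups. Of the 33 tested members, 17 were higher in si-Rbm22 (51.5%, against 43.1% of all tested genes), 6 were lower (18.2%, against 38.9%) and 10 did not pass. The share past the test, 69.7%, stood beside 82.0% over all tested genes, so passing was common in the whole table. With a fold change of at least 2 also required, 16 members were higher (48.5%, against 24.4%) and 5 lower (15.2%, against 18.7%), where 43.1% of all genes met that rule in either direction. The groups did not overlap for 25 members (75.8%, against 84.2%): all si-Rbm22 libraries lay above for 16 (44.0% of all genes) and below for 9 (40.2%). The median log2 fold change of the 33 was 0.62, against 0.05 over all tested genes. The larger share of higher members rested in part on members with few reads in 1 group. Of the 22 members with a mean of at least 1 CPM in each group, 8 were higher and 4 lower, by a rule added after seeing the data. By role, all 4 oligoadenylate synthetase members and the 3 tested GTPase members were higher. All 3 p200 members were lower, and none of the 4 IFIT members was higher. Oas1a, Oas2, Oasl1, Usp18, Rsad2, Cmpk2 and Mx2 had too few si-Control reads to pass the low-count filter there. They were tested because of their si-Rbm22 reads, so the filter partly set the direction of these higher calls. Ifi202b and Zbp1, both lower, were in turn tested because of their si-Control reads.

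Summed over the 34 members, the level was 378, 560 and 374 CPM in si-Rbm22 and 540, 503 and 511 CPM in si-Control. Without the 3 p200 genes it was 367, 546 and 364 CPM in si-Rbm22 and 404, 360 and 365 CPM in si-Control. Replicate 2 of si-Rbm22 stood above its group in both sums, and without the p200 genes the 2 remaining si-Rbm22 libraries lay within the si-Control range.

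**Figure D2:**
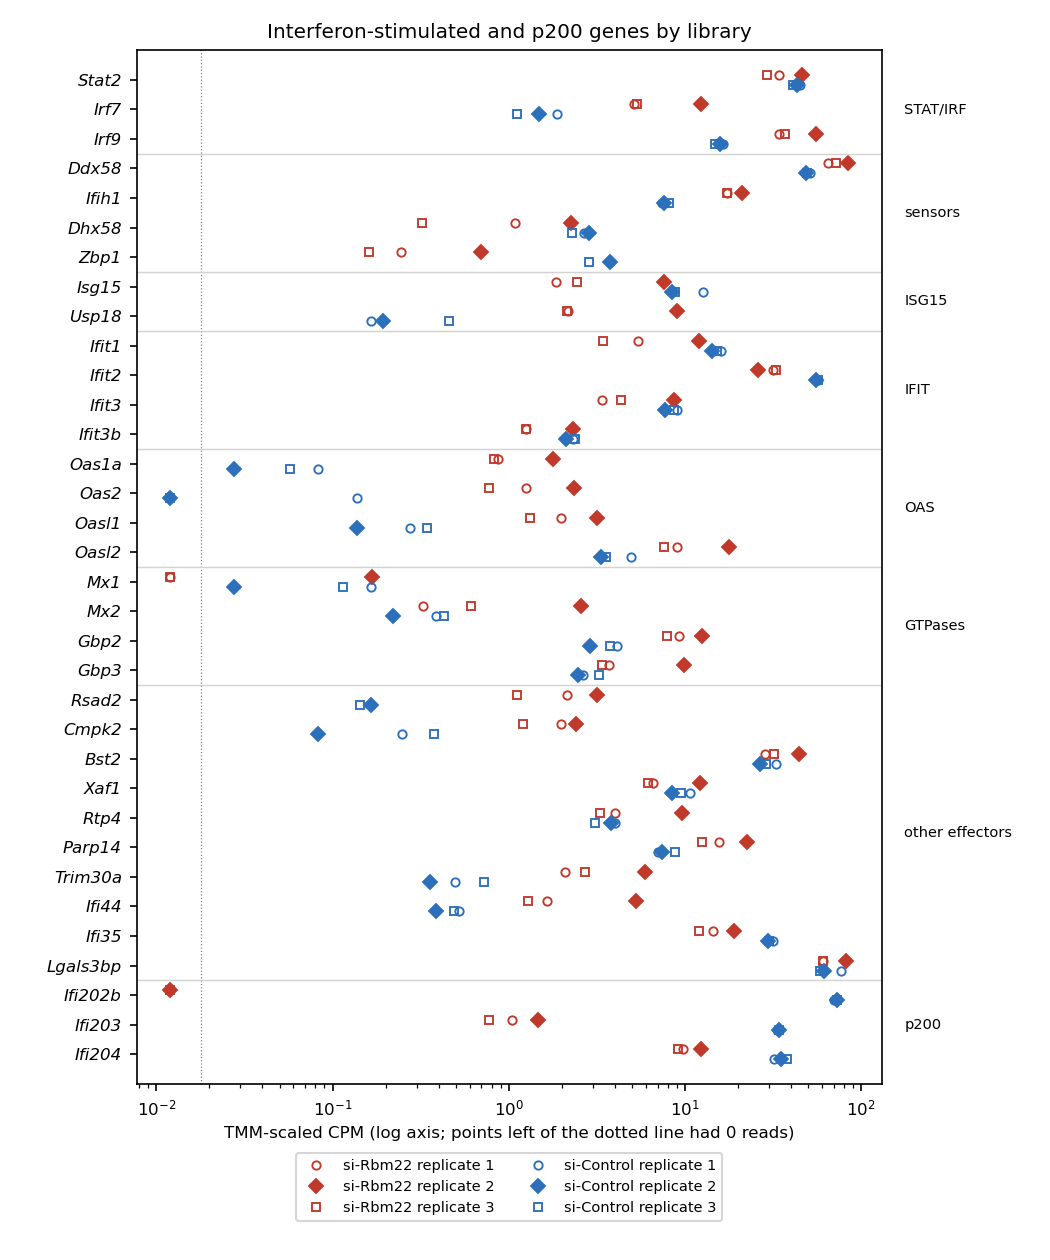
TMM-scaled CPM of each member in each library on a log axis, with si-Rbm22 in red, si-Control in blue, replicate 2 as filled diamonds and genes grouped by role. Points left of the dotted line had 0 reads, as in all si-Rbm22 libraries for Ifi202b. The oligoadenylate synthetase genes lie higher in si-Rbm22 and the p200 genes lower, and the filled red diamonds lie right of the open red points for most genes.

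One library stood apart for these genes. Among the 32 members with reads in si-Rbm22 and a test, replicate 2 was the highest si-Rbm22 library for 31 (96.9%), the exception being Ifit2. Over all 14489 tested genes with reads in that group, it was highest for 33.8%. The median ratio of replicate 2 to the mean of the other si-Rbm22 libraries was 1.94 for members and 1.01 for all genes. Members reached 5.44 for Mx2, 4.21 for Usp18, 3.64 for Ifi44 and 3.53 for Isg15, and Ddx58 and Ifih1 were among the smallest at 1.24 and 1.21. Of 46 other interferon-stimulated genes tested, 35 (76.1%) were highest in replicate 2, with a median ratio of 1.20. Of the 12 macrophage markers tested, 6 were highest there, with a median ratio of 1.13, and their part in the pattern was not tested. Unscaled CPM gave the same 31 of 32. In si-Control the highest library was replicate 1 for 19 members, replicate 2 for 3 and replicate 3 for 11.

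Members also varied more within si-Rbm22 than within si-Control. Over the 24 members with at least 50 reads in each group, the median coefficient of variation was 35.1% in si-Rbm22 and 10.7% in si-Control, against 7.41% in si-Rbm22 and 4.88% in si-Control over 11842 genes. With si-Rbm22 replicate 2 left out, 15 members were higher, 13 lower and 5 not past (edgeR, with 42.3% of 14832 genes higher and 38.5% lower), and the members' median log2 fold change was 0.34, against 0.05 over all genes. Of the 17 genes higher in the full comparison 15 kept that call, Mx2 and Gbp3 losing it, and all 6 lower genes kept theirs. Stat2, Dhx58, Isg15, Ifit1, Ifit3, Ifit3b and Xaf1 then passed as lower.

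**Figure D3:**
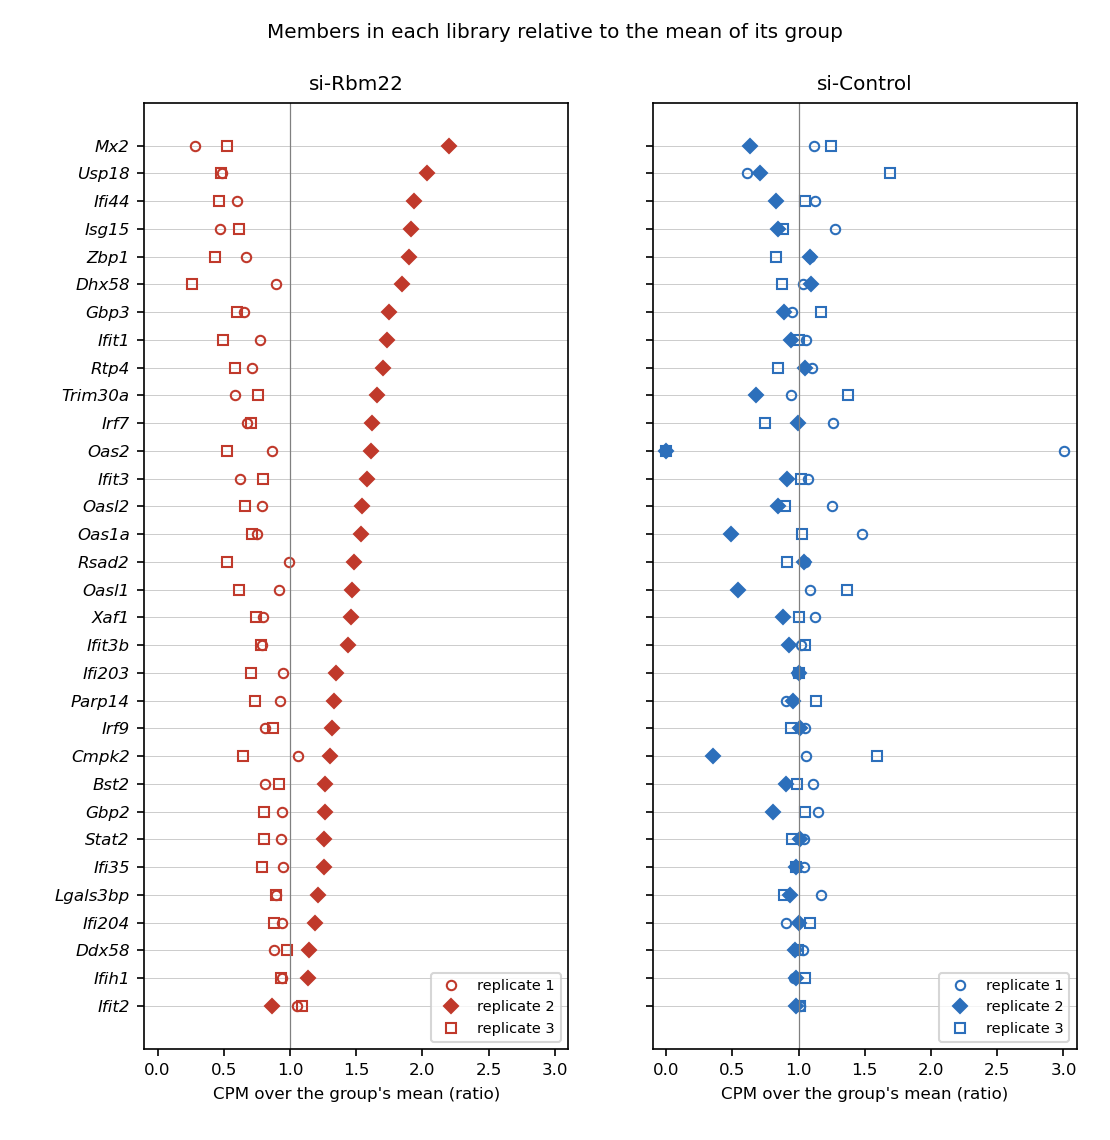
CPM of each member in each library divided by the mean of its group, on a linear axis, with si-Rbm22 in the left panel and si-Control in the right one. Ifi202b, with no read in si-Rbm22, and the untested Mx1 are left out. Replicate 2 (filled diamonds) is highest in si-Rbm22 for 31 of the 32 genes, Ifit2 excepted, while in si-Control it is highest for few.

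**Figure D4:**
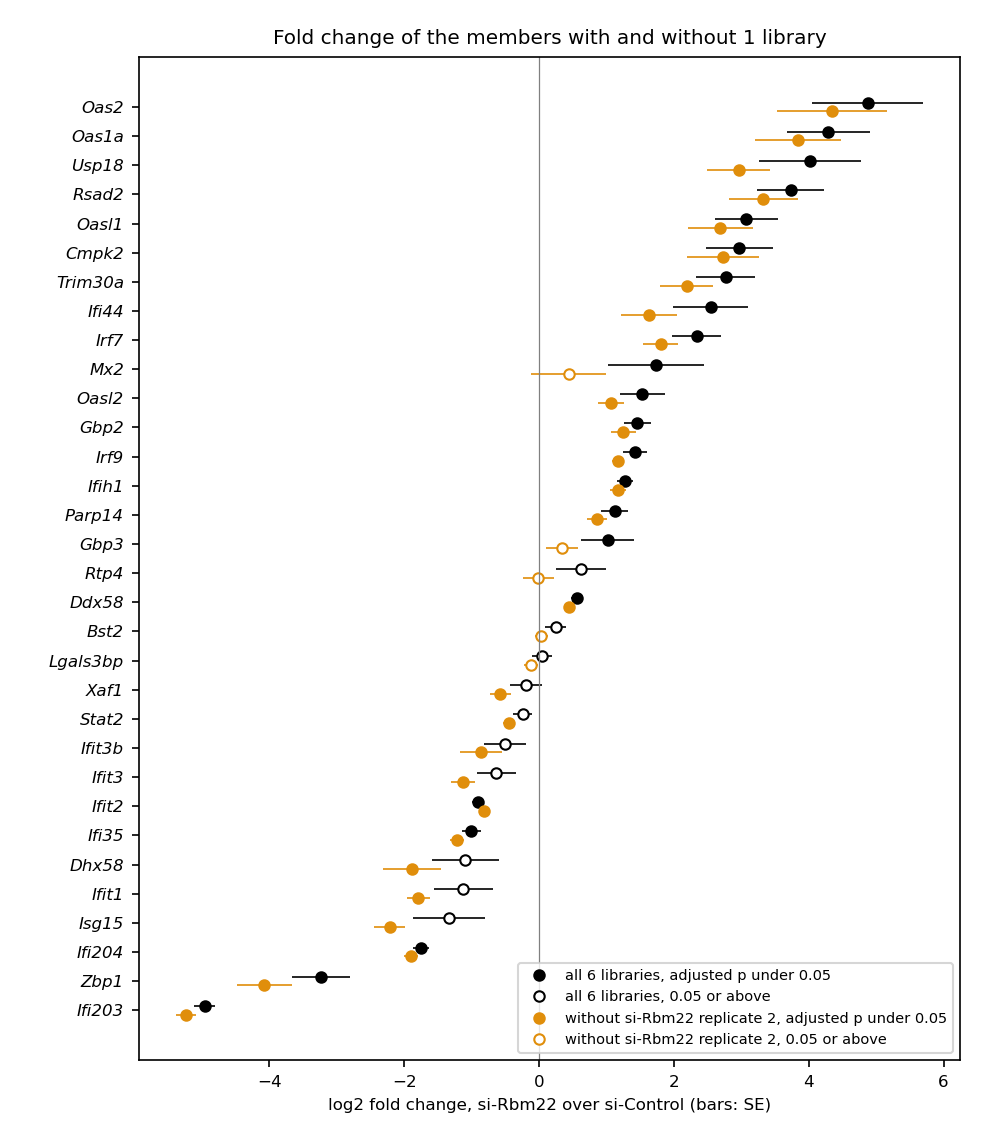
Log2 fold change (si-Rbm22 over si-Control) of each tested member but Ifi202b, with all 6 libraries (black) and without si-Rbm22 replicate 2 (orange), 1 line per gene. Bars are SE, and filled points have an adjusted p under 0.05. The log2 fold change of Isg15 is -2.21 without that library and -1.33 with it, and Mx2 and Gbp3 become open points.

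Of the 3 transcription factors among the members, Irf7 and Irf9 were higher and Stat2 did not pass. Irf7 (ENSMUSG00000025498, chromosome 7, 141262706 to 141266481), the factor that amplifies interferon production, had 189, 442 and 201 reads in si-Rbm22 and 68, 54 and 39 in si-Control. The groups did not overlap, and replicate 2 was the highest si-Rbm22 library (log2 fold change 2.34, SE 0.368, adjusted p = 0.00014). Irf9, the DNA-contacting subunit of the STAT2 complex, had 1252, 2002 and 1386 reads in si-Rbm22 and 597, 573 and 513 in si-Control. Its groups were far apart, at 42.2 ± 11.7 CPM in si-Rbm22 and 15.7 ± 0.852 CPM in si-Control (log2 fold change 1.43, adjusted p = 6.15e-05). Stat2, its partner, had 1254, 1659 and 1105 reads in si-Rbm22 and 1632, 1581 and 1429 in si-Control. Its groups overlapped through replicate 2 of si-Rbm22 and it did not pass (log2 fold change -0.24, SE 0.141, adjusted p = 0.138). Without that library it passed as lower at -0.45 (adjusted p = 0.000202).

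Among the nucleic acid sensors, Ifih1 and Ddx58 were higher and Zbp1 was lower. Ifih1, which encodes the sensor of long double-stranded RNA MDA5, had 637, 758 and 650 reads in si-Rbm22 and 270, 275 and 281 in si-Control. These groups stood well apart, with a log2 fold change of 1.27 (SE 0.117, adjusted p = 1.74e-07). Ddx58, which encodes RIG-I, the sensor of RNA with triphosphate ends, averaged 73.8 ± 10 CPM in si-Rbm22 and 49.9 ± 1.61 CPM in si-Control (log2 fold change 0.56, adjusted p = 4.66e-05). Zbp1, a sensor of Z-form nucleic acids that can trigger necroptosis, had 9, 25 and 6 reads in si-Rbm22 and 136, 136 and 99 in si-Control. Every si-Rbm22 library was below every si-Control library (log2 fold change -3.23, SE 0.431, adjusted p = 8.22e-06), and without si-Rbm22 replicate 2 the log2 fold change was -4.07. Dhx58, which encodes LGP2, a RIG-I-like protein without signalling domains of its own, had 40, 81 and 12 reads in si-Rbm22 and 97, 103 and 79 in si-Control. On the CPM scale every si-Rbm22 library was below every si-Control library, but the si-Rbm22 libraries were scattered and the gene did not pass (log2 fold change -1.09, adjusted p = 0.0638). It passed with DESeq2 (adjusted p = 0.0358) and without si-Rbm22 replicate 2 (-1.88, adjusted p = 0.000945).

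The ISG15 pair gave different calls. Usp18 (ENSMUSG00000030107, chromosome 6, 121245906 to 121270917) encodes the protease that removes ISG15 from proteins and also restrains the interferon receptor. It had 79, 325 and 80 reads in si-Rbm22 and 6, 7 and 16 in si-Control. All si-Rbm22 libraries were above, replicate 2 most of all (log2 fold change 4.01, SE 0.754, adjusted p = 0.000995), and without that library the log2 fold change was 2.96. Isg15 (ENSMUSG00000035692, chromosome 4, 156199424 to 156200818) encodes the ubiquitin-like protein itself and had 68, 274 and 92 reads in si-Rbm22 and 460, 306 and 306 in si-Control. The groups did not overlap, yet replicate 2 of si-Rbm22 was near the si-Control libraries and the gene did not pass (log2 fold change -1.33, SE 0.539, adjusted p = 0.0593). Without that library it passed as lower, with a log2 fold change of -2.21 (SE 0.228, adjusted p = 3.08e-07), and leaving out si-Control replicate 3 also brought it past the threshold (adjusted p = 0.0496).

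IFIT proteins bind foreign RNA ends and block translation. The 4 member genes stand together on chromosome 19, from Ifit2 at 34550694 to Ifit1 at 34650009, and none was higher in si-Rbm22. Ifit1bl1 and Ifit1bl2 lie within this stretch, are not members and were higher. Ifit1bl1 had 128, 59 and 104 reads in si-Rbm22 and 1, 3 and 1 in si-Control (log2 fold change 5.72, adjusted p = 2.92e-07). Ifit1bl2 had 86, 60 and 82 reads in si-Rbm22 and 4, 5 and 8 in si-Control (3.67, adjusted p = 2e-06). Ifit2 was lower, with 1163, 940 and 1238 reads in si-Rbm22 and 2072, 2022 and 1988 in si-Control. It was the member whose replicate 2 was the lowest si-Rbm22 library, at 0.807 of the other libraries' mean, and the groups lay far apart (log2 fold change -0.905, 30.3 ± 3.66 CPM in si-Rbm22 against 56.7 ± 0.868 CPM in si-Control, SE 0.084, adjusted p = 1.73e-07). Ifit1 had 198, 437 and 129 reads in si-Rbm22 and 580, 520 and 530 in si-Control. All si-Rbm22 libraries were below, and the gene missed the threshold (log2 fold change -1.12, SE 0.435, adjusted p = 0.0517). It passed without si-Rbm22 replicate 2 (-1.79, adjusted p = 1.70e-07), with DESeq2 (adjusted p = 0.0433) and under a stricter low-count filter (adjusted p = 0.0358). Ifit3 had 125, 312 and 164 reads in si-Rbm22 and 329, 280 and 300 in si-Control, and Ifit3b 46, 83 and 47 in si-Rbm22 and 84, 77 and 83 in si-Control. For both, replicate 2 of si-Rbm22 lay within or near the si-Control range while the remaining libraries were lower, and neither passed (adjusted p = 0.0707 for Ifit3 and 0.145 for Ifit3b). Ifit3 passed with DESeq2 (adjusted p = 0.0331). Without replicate 2, their log2 fold changes were -1.13 and -0.86, with adjusted p = 3.06e-05 for Ifit3 and 0.0197 for Ifit3b. The pair is uncertain as separate genes, since 51.2% of the 50-base words in Ifit3 transcripts also occur in Ifit3b.

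All 4 oligoadenylate synthetase genes among the members, which lie on chromosome 5, were higher. Of those on the list of other interferon-stimulated genes, Oas1b (log2 fold change 2.23, adjusted p = 0.000562) and Oas1c (2.62, adjusted p = 0.000326) were higher too. Oas1g and Oas3, with few reads, were not tested. OAS1A and OAS2 make the oligoadenylates that activate RNase L, and the OAS-like proteins act in RNA sensing and translation control. Oas1a had 32, 64 and 31 reads in si-Rbm22 and 3, 1 and 2 in si-Control. This was 20.6 times as many per scaled library (95% counting interval 9.21 to 57.2, adjusted p = 1.59e-05), with no overlap. Of the 50-base words in Oas1a transcripts, 57.6% also occur in Oas1g, so reads of the pair cannot be told apart with certainty. Oas2 had 46, 85 and 29 reads in si-Rbm22 and 5, 0 and 0 in si-Control, a ratio of 31.1 (13.1 to 97.2, adjusted p = 0.00012). All of its si-Control reads came from replicate 1, so the size of this ratio rests on that library (fitted log2 fold change 4.87 with it and 8.73 without it). Oasl1, which restrains IRF7 translation in mice, had 72, 114 and 50 reads in si-Rbm22 and 10, 5 and 12 in si-Control (log2 fold change 3.08, adjusted p = 2.78e-05). Oasl2 averaged 11.5 ± 5.53 CPM in si-Rbm22 and 3.97 ± 0.872 CPM in si-Control (log2 fold change 1.53, adjusted p = 0.00221). Apart from Oasl2, the 4 members had 12 reads or fewer in each si-Control library.

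The GTPase genes include the dynamin-like Mx proteins and the guanylate-binding proteins, which act on viral particles and pathogen vacuoles. Gbp2 had 339, 449 and 297 reads in si-Rbm22 and 149, 105 and 131 in si-Control. Its groups stood apart (log2 fold change 1.46, SE 0.198, adjusted p = 9.95e-06). Gbp3 had 135, 357 and 128 reads in si-Rbm22 and 96, 90 and 113 in si-Control, and Mx2 12, 92 and 23 reads in si-Rbm22 and 14, 8 and 15 in si-Control. Both passed (log2 fold change 1.02 and adjusted p = 0.0374 for Gbp3, 1.74 and 0.0412 for Mx2), and both rested on replicate 2: without it the log2 fold change was 0.34 for Gbp3 (adjusted p = 0.208) and 0.44 for Mx2 (adjusted p = 0.476). Each also lost its call when any one si-Control library was left out (adjusted p 0.0559 to 0.109 for Gbp3 and 0.0761 to 0.124 for Mx2), the Gbp3 call was lost without a low-count filter (adjusted p = 0.0881), and the Mx2 groups overlapped. Mx1, which is known to carry a disabling deletion in C57BL/6 mice, had 0, 6 and 0 reads in si-Rbm22 and 6, 1 and 4 in si-Control, a ratio of 0.531 (0.161 to 1.57), so no difference was detectable at this depth.

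Of 10 other effectors, 5 were higher (50%, against 43.1% of all tested genes), 1 was lower (10%, against 38.9%) and 4 did not pass. The share past the test was 60%, against 82.0%. Rsad2 encodes viperin, which makes a chain-terminating nucleotide, and Cmpk2 encodes a nucleotide kinase beside it on chromosome 12. Rsad2 had 78, 115 and 42 reads in si-Rbm22 and 6, 6 and 5 in si-Control, a ratio of 13.5 (8.23 to 23.5, adjusted p = 7.88e-06). Cmpk2 had 72, 87 and 45 reads in si-Rbm22 and 9, 3 and 13 in si-Control (log2 fold change 2.97, adjusted p = 6.52e-05). Both neighbours had 13 reads or fewer in each si-Control library and were higher in every si-Rbm22 library. Trim30a, a mouse tripartite motif protein, averaged 3.59 ± 2.06 CPM in si-Rbm22 and 0.525 ± 0.183 CPM in si-Control (log2 fold change 2.77, adjusted p = 7.02e-05). Ifi44 averaged 2.74 ± 2.23 CPM in si-Rbm22 and 0.467 ± 0.0721 CPM in si-Control (log2 fold change 2.54, adjusted p = 0.00115). For both, replicate 2 was the high si-Rbm22 library, and without it the log2 fold changes were 2.19 for Trim30a and 1.63 for Ifi44. Parp14, an ADP-ribosyltransferase, averaged 16.9 ± 5.18 CPM in si-Rbm22 and 7.76 ± 0.917 CPM in si-Control (adjusted p = 0.000304). Ifi35 was the effector that went the other way, with 529, 689 and 451 reads in si-Rbm22 and 1152, 1083 and 1037 in si-Control (log2 fold change -1.01, SE 0.14, adjusted p = 4.02e-05), and its groups did not overlap.

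The 4 effectors that did not pass had overlapping groups. Bst2 encodes tetherin, which holds budding virions at the cell surface, and had 1044, 1595 and 1208 reads in si-Rbm22 and 1187, 969 and 1009 in si-Control (35 ± 8.27 CPM in si-Rbm22 against 29.5 ± 3.05 CPM in si-Control, log2 fold change 0.25, SE 0.154, adjusted p = 0.167). Replicate 2 was the high si-Rbm22 library of Bst2, and the others overlapped si-Control. Lgals3bp, a secreted galectin ligand, had 2229, 2967 and 2285 reads in si-Rbm22 and 2798, 2238 and 2044 in si-Control (log2 fold change 0.045, SE 0.145, adjusted p = 0.781). Xaf1, a partner of the apoptosis inhibitor XIAP, had 243, 440 and 233 reads in si-Rbm22 and 386, 305 and 331 in si-Control (log2 fold change -0.19, SE 0.238, adjusted p = 0.471). In Xaf1 replicate 2 of si-Rbm22 was the high library, and without it the gene passed as lower at -0.57 (adjusted p = 0.00315). Rtp4, a chaperone of receptors, had 146, 345 and 123 reads in si-Rbm22 and 146, 139 and 107 in si-Control (log2 fold change 0.62, SE 0.373, adjusted p = 0.15). Replicate 2 was the high library, and without it the log2 fold change was -0.01. Leaving out si-Rbm22 replicate 3 brought Rtp4 past the threshold (adjusted p = 0.0263), and leaving out si-Rbm22 replicate 1 did so for Bst2 (adjusted p = 0.0315).

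The 3 p200 genes lie within a cluster on chromosome 1 (minus strand) and all were lower in si-Rbm22. Ifi202b (ENSMUSG00000026535, 173962568 to 173982744), whose product can oppose the AIM2 DNA sensor and which is known as a gene with low or no expression in C57BL/6 mice, had no read in any si-Rbm22 library and 2549, 2665 and 2549 reads in si-Control. That is 72.4 ± 1.79 CPM in si-Control and at least 2659-fold lower in si-Rbm22, set against a floor of 3 counts over that group (adjusted p = 3.97e-14). The labels give C57BL/6J for both groups. None of its 50-base transcript words occurs in another gene, and no ISRE core was found in its promoter. The 250 bases before its start, chr1:173982845-173983094 on the minus strand, are shown because the gene was read in 1 group alone, with the single GAS match in capitals.
Ifi202b: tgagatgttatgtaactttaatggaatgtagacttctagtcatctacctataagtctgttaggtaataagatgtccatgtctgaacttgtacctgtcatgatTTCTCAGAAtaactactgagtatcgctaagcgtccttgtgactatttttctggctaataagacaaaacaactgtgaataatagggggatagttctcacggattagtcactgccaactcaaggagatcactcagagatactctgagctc
Ifi203 (ENSMUSG00000039997, 173920407 to 173942672), a nuclear p200 protein gene, had 38, 53 and 29 reads in si-Rbm22 and 1217, 1242 and 1187 in si-Control. The groups were far apart, with a log2 fold change of -4.96 (SE 0.157, adjusted p = 1.54e-12). Ifi204 (ENSMUSG00000073489, 173747293 to 173766943), whose product senses DNA upstream of STING in mice, had 359, 445 and 343 reads in si-Rbm22 and 1156, 1280 and 1323 in si-Control (log2 fold change -1.75, SE 0.115, adjusted p = 5.84e-09). Read assignment is less sure for these genes than for Ifi202b, as 12.2% of the 50-base words of Ifi203 and 20% of those of Ifi204 occur in other genes. Summed over the 3 genes, the level was 10.8, 13.8 and 9.91 CPM in si-Rbm22 and 136, 143 and 146 CPM in si-Control.

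Per kilobase of exon, the order of the members also differed between the groups. In si-Rbm22 the first were Bst2 at 38.8 CPM per kb, Lgals3bp at 23.9, Ddx58 at 10.5, Ifi35 at 8.80, Irf9 at 7.84 and Ifit2 at 7.71. In si-Control they were Ifi202b at 42.7 CPM per kb (41.4 to 43.3 over libraries), Bst2 at 32.7 (29.6 to 36.3), Lgals3bp at 23.2, Ifi35 at 17.7, Ifit2 at 14.4 and Isg15 at 13.2. Bst2 and Lgals3bp were thus high in both. Oas2 (0.0103 CPM per kb), Mx1 (0.0272) and Oas1a (0.0297) were the lowest in si-Control.

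Members with an ISRE core in the promoter were found in every call. Of the 14, 7 were higher, 1 was lower and 6 did not pass, with a median log2 fold change of 0.40. Of the 11 without one, 6 were higher, 3 were lower and 2 did not pass, with a median of 1.43. Of the 9 with no matched promoter, 4 were higher, 2 lower, 2 not past and 1 not tested, with a median of 0.87. Over all tested genes 43.1% were higher and 38.9% lower, with a median of 0.05. Differences between these small sets were not tested. The ratio of si-Rbm22 replicate 2 to the other libraries had a median of 1.91 (1.21 to 3.53) with the core. It was 1.73 (0.807 to 3.64) over 10 genes without the core and 2.92 (1.31 to 5.44) over 8 with no matched promoter.

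The rest of the pathway was read from lists of 146 further genes, of which 132 were in the table and 119 were tested. Of these, 52 were higher, 57 lower and 10 did not pass, and the median log2 fold change was -0.12. The shares were 43.7% higher, against 43.1% of all tested genes, and 47.9% lower, against 38.9%, with 91.6% past the test, against 82.0%. The share of higher calls was thus near that of the whole table, and the same all-gene shares stand behind the counts of each list that follows. Interferon ligands were close to unread: Ifnb1 had no read in si-Rbm22 and 1 read in si-Control, Ifng none in si-Rbm22 and 1, 2 and 2 reads in si-Control, and Ifne none in si-Rbm22 and 1 in si-Control. Interferon receptors and their kinases gave 4 higher (40%) and 6 lower genes (60%) of 10. Ifnar1 averaged 73.5 ± 5.31 CPM in si-Rbm22 and 98.4 ± 1.94 CPM in si-Control (log2 fold change -0.42, adjusted p = 2.51e-05), and Ifnar2 28.9 ± 0.914 CPM in si-Rbm22 and 36.5 ± 2.16 CPM in si-Control (adjusted p = 0.000778). Both chains of the type I receptor were therefore lower. Ifngr2, a chain of the interferon-gamma receptor, averaged 207.5 ± 7.42 CPM in si-Rbm22 and 59.4 ± 1.33 CPM in si-Control (log2 fold change 1.80, adjusted p = 1.44e-12). Ifnlr1, a chain of the interferon-lambda receptor, had 224, 235 and 181 reads in si-Rbm22 and 1, 0 and 0 in si-Control, a ratio of 623 (111 to 24600) that rests on that single si-Control read (fitted log2 fold change 8.83, and 10.72 without si-Control replicate 1). The kinase genes Jak2 (log2 fold change -1.08, adjusted p = 9.61e-10) and Tyk2 (-0.86, adjusted p = 4.39e-08) were lower.

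**Figure D5:**
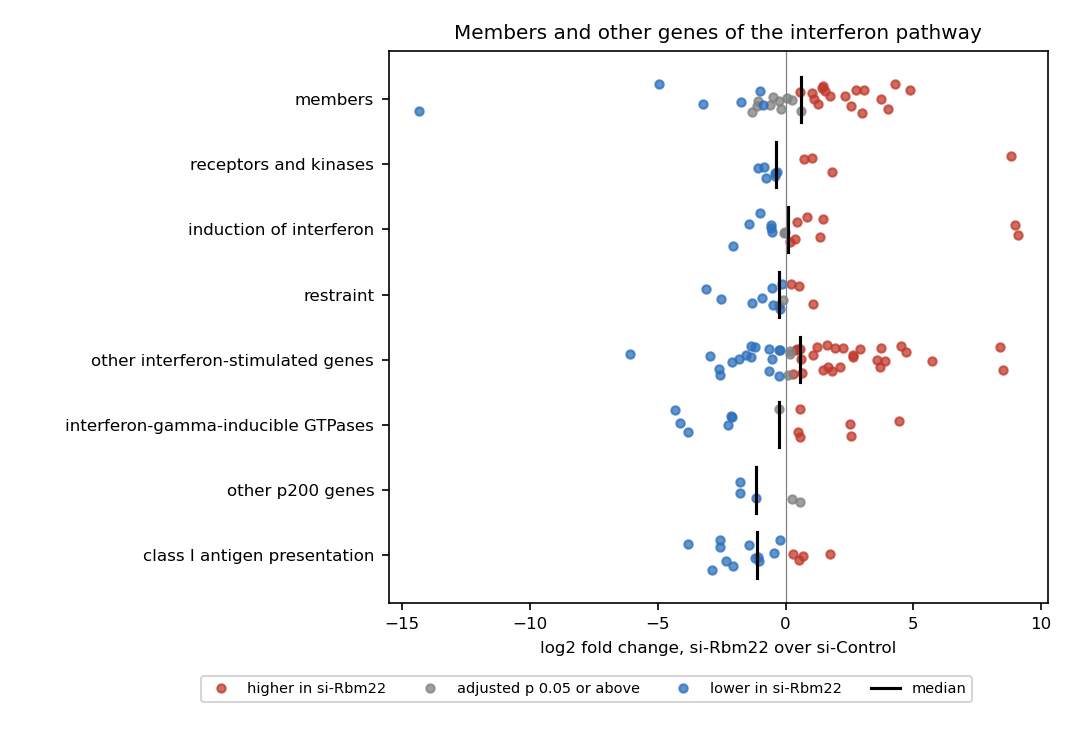
Log2 fold change (si-Rbm22 over si-Control) of each tested member and of the other pathway genes by list, with the call in colour and the list median as a black bar. Members have a median of 0.62 and class I antigen presentation genes a median of -1.14.

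Genes for the induction of interferon were split, with 8 higher (50%), 6 lower (37.5%) and 2 not past of 16. Cgas, the cytosolic DNA sensor, averaged 2.35 ± 0.324 CPM in si-Rbm22 and 9.79 ± 0.611 CPM in si-Control (log2 fold change -2.06, adjusted p = 4.59e-08), while Tmem173, which encodes the adaptor STING downstream of it, averaged 32.9 ± 2.58 CPM in si-Rbm22 and 13 ± 0.811 CPM in si-Control (log2 fold change 1.34, adjusted p = 6.39e-09). Irf1 averaged 30.6 ± 1.22 CPM in si-Rbm22 and 83.4 ± 2.74 CPM in si-Control (adjusted p = 5.01e-11). Tlr7, an endosomal RNA receptor of immune cells, had 57, 74 and 74 reads in si-Rbm22 and none in si-Control, at least 66.5-fold higher against the floor of 3 counts over the group. Its direction was that of the 12 tested macrophage markers, all of which were higher in si-Rbm22. Adgre1, C1qb, C1qc and Tyrobp had no read in si-Control, and Ctss, C1qa, Mrc1, Ptprc and Fcer1g had 8 or fewer in each si-Control library. These markers, and Tlr7, passed the low-count filter through si-Rbm22 alone, so their direction was set by the filter. Csf1r, Cd68 and Lyz2 had more reads in every si-Control library. Of the untested markers, Aif1 (1, 2 and 3 reads in si-Rbm22, 7, 9 and 13 in si-Control) and Cd163 (0, 1 and 0, against 5, 3 and 3) were lower. Fcgr1 was higher, and the groups overlapped for Cx3cr1 and Itgam. The part of these markers in the Tlr7 result was not tested. Negative regulators gave 3 higher (23.1%), 8 lower (61.5%) and 2 not past of 13. Socs1, the inhibitor of JAK kinases, had 44, 45 and 46 reads in si-Rbm22 and 363, 411 and 360 in si-Control, a wide and even gap (adjusted p = 6.76e-10). Socs3 averaged 17.6 ± 3.62 CPM in si-Rbm22 and 43.9 ± 0.491 CPM in si-Control (log2 fold change -1.32, adjusted p = 5.14e-07). Rnaseh2a, a subunit of the enzyme that removes ribonucleotides from DNA (-2.52, adjusted p = 1.99e-13), and Irf2bp2, a corepressor partner of IRF2 (-0.94, adjusted p = 8.49e-09), were lower as well.

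Among 46 other interferon-stimulated genes, 27 were higher (58.7%, against 43.1% of all tested genes), 16 lower (34.8%, against 38.9%) and 3 not past, with a median log2 fold change of 0.58. The 4 with the smallest p were lower: Tor3a (-2.63, adjusted p = 2.52e-13), Ifi27 (adjusted p = 4.93e-11), Ifitm2, which encodes a membrane protein that blocks viral entry (-1.34, adjusted p = 5.60e-11), and Ccl5, a chemokine, at 0.566 ± 0.26 CPM in si-Rbm22 and 38.4 ± 4.74 CPM in si-Control (-6.08, adjusted p = 8.00e-11). Interferon-gamma-inducible GTPases, 13 in all, gave 6 higher (46.2%), 6 lower (46.2%) and 1 not past. Irgm2 averaged 22.7 ± 7.46 CPM in si-Rbm22 and 3.86 ± 0.424 CPM in si-Control (log2 fold change 2.56, adjusted p = 1.19e-06). Tgtp1 was higher with a read ratio of 23.2 (9.65 to 72.7). Tgtp2, also on chromosome 11, was lower, with 8, 12 and 11 reads in si-Rbm22 and 52, 42 and 41 in si-Control (-2.15, adjusted p = 0.000211). Read assignment between Tgtp1 and Tgtp2 was not checked. Gbp4 (-3.81, adjusted p = 2.43e-05) and Gbp8 (-4.34, adjusted p = 1.31e-06) were lower, opposite to Gbp2 and Gbp3. The fitted log2 fold change was -5.21 for Gbp4 without si-Rbm22 replicate 2 and -5.38 for Gbp8 without si-Rbm22 replicate 3.

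Of 5 further p200 genes tested, none was higher with all libraries in the fit, 3 were lower (60%, against 38.9% of all tested genes) and 2 did not pass. Ifi209, of the same list, was left untested by the low-count filter. It had 22, 8 and 12 reads in si-Rbm22 and 0, 1 and 0 in si-Control. The ratio of 40.9 (6.95 to 1650) rests on that single si-Control read. Ifi211 averaged 5.65 ± 0.854 CPM in si-Rbm22 and 12.5 ± 0.755 CPM in si-Control (log2 fold change -1.14, adjusted p = 3.72e-06), and Mndal 2.01 ± 0.465 CPM in si-Rbm22 and 6.97 ± 0.417 CPM in si-Control (-1.79, adjusted p = 1.71e-06). Ifi205 passed at -1.77 (adjusted p = 0.0279) with overlapping groups, and it lost the call with DESeq2 (adjusted p = 0.0524) and without any of 4 libraries (adjusted p 0.0506 to 0.166 without si-Rbm22 replicate 1 or 3 or si-Control replicate 1 or 3). Without si-Rbm22 replicate 2 its log2 fold change was -3.16. Aim2, the inflammasome DNA sensor of this family, had 151, 79 and 138 reads in si-Rbm22 and 50, 111 and 80 in si-Control, with overlap (log2 fold change 0.57, SE 0.318, adjusted p = 0.114). It passed as higher without si-Rbm22 replicate 2 (0.79, adjusted p = 0.0247) and without si-Control replicate 2 (0.84, adjusted p = 0.0442). Class I antigen presentation genes, another interferon-responsive group, gave 4 higher (H2-K1, Psmb10, Psme1 and Erap1) and 12 lower of 16, shares of 25% and 75% against 43.1% higher and 38.9% lower over all tested genes, with a median log2 fold change of -1.14. Tap2, a subunit of the peptide transporter, averaged 8.66 ± 1.19 CPM in si-Rbm22 and 122.3 ± 4.48 CPM in si-Control (log2 fold change -3.82, adjusted p = 6.56e-14). H2-Q4 (-2.05, adjusted p = 1.03e-11), Tapbp (-1.19, adjusted p = 6.32e-10) and Psme2 (-1.42, adjusted p = 9.86e-10) were lower with it.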

How the data were processed

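Per the submitters' processing notes, which give neither versions nor roles, fastp, HISAT2, HTSeq, DESeq2 and GRCm38 were used. The authors deposited raw counts, whole numbers for each Ensembl gene in 6 libraries, without normalization. Which annotation release and strand setting the counting used is not given in the sources used here, so genes with near-identical copies or overlapping neighbours are uncertain. Of 18951 identifiers, 18856 matched GENCODE M21. Sample titles gave the groups and replicate numbers.

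Counts were tested with edgeR 4.0.16 in R 4.3.3 (TMM, filterByExpr, robust quasi-likelihood fit, group as the only term, Benjamini-Hochberg over 14621 genes). The SE was taken as |log2 fold change| over the root of the F statistic. Ratios of low counts have 95% exact binomial intervals. A group with no read was set at 3 counts over the group. Intervals and floors cover counting error only. Library pairs of a group differed beyond sampling noise (chi-square per degree of freedom 10.5 to 30.94 in si-Rbm22 and 4.52 to 7.05 in si-Control). The procedure was tested on simulated data with the same spread setting for both groups. The members did not have this, with a median coefficient of variation of 35.1% in si-Rbm22 and 10.7% in si-Control. The simulation therefore does not bear on calls of members with scattered si-Rbm22 libraries. Alternatives were RLE factors, DESeq2 1.42.0, other filters and thresholds, the replicate block and each library left out.

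The members and lists were chosen with earlier results of these data known. Named genes were all members, up to 4 genes per pathway list with the smallest p, and Rbm22, Ifnar1, Ifnar2, Ifnb1 and Aim2. One gene that this rule names is not reported here. Ifng, Ifne, the 4 higher class I genes and the 3 higher fibroblast markers were named after their values were seen. So were Ifit1bl1, Ifit1bl2, Oas1b, Oas1c, Oas1g, Oas3, Tgtp2, Ifi209 and the untested macrophage markers.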

Additional observations from a re-analysis of the deposited data

How the results depend on the processing

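With each library left out in turn, 11773 to 12315 of all genes passed (6229 to 6407 higher, 5493 to 5908 lower), 21 to 28 members (15 to 18 higher, 6 to 13 lower, with 13 lower without si-Rbm22 replicate 2) and 104 to 111 other pathway genes (49 to 55 higher, 53 to 58 lower). A filter of at least 10 CPM in 3 libraries left 13 members, of which 10 passed, 4 of them higher and 6 lower. With that filter 8772 of 10497 genes passed, 4400 higher and 4372 lower. Of 71 other pathway genes 65 passed, 25 of them higher and 40 lower. Fewer genes were tested there. Counting only members with a mean of at least 1 CPM in each group, a rule added after seeing the data, left 22. Of these 12 passed, 8 of them higher and 4 lower. Over all tested genes 43.1% were higher and 38.9% lower, but the 1 CPM rule was not applied to them. With a fold of at least 2 also required, 6301 of all genes passed, 3566 higher and 2735 lower. Same-numbered libraries did not deviate together (correlations -0.016, 0.007 and 0.008). With 3 libraries per group and differing cell content, this cannot show whether the samples were paired, and they were not treated as pairs. With the replicate block 26 members passed, 10 of them lower, against 6 without it, and the cause was not tested. DESeq2 called 26 members, RLE factors 23, no low-count filter 22 and an adjusted p under 0.01 21. Rtp4 ranged from -0.01 (without si-Rbm22 replicate 2) to 0.88 in log2 fold change as libraries were left out. Lgals3bp ranged from -0.12 (without si-Rbm22 replicate 2) to 0.17, with -0.02 and -0.05 without si-Control replicates 2 and 3, and neither sign passed the test. Members with few reads in si-Control (Oas1a, Oas2, Rsad2, Usp18) are limited by counting there.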
